A study of Mus musculus with 30 samples.

Results

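The cytoplasmic ribosome joins ribosomal RNA with a set of ribosomal proteins, named Rpl for the large subunit and Rps for the small subunit, and reads messenger RNA into protein in the cytosol. Most ribosomal protein mRNAs begin with a short run of pyrimidines, the 5′ terminal oligopyrimidine or TOP motif, through which the kinase mTOR and the RNA-binding protein Larp1 control their translation. In the developing brain, growing neurons and dividing progenitors make ribosomes at a high rate. Nf1 encodes neurofibromin, an inhibitor of Ras that also bears on mTOR signalling.

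The genes were chosen by symbol: probe sets with 1 gene symbol of the form Rpl or Rps and a number, or Rpsa, Rplp0, Rplp1 or Rplp2, without the Rps6k kinases. The rule found 49 of the 12488 probe sets, for 35 genes. Of these, 30 probe sets for 25 genes had a mean intensity of 31 or more over the 30 arrays and are described here. The other 10 genes had no probe set at that level: Rpl32, Rpl35a, Rpl38, Rpl39, Rpl39l, Rps13, Rps14, Rps15, Rps20 and Rps27l. Just inside the limit lay an Rps4x probe set at 33.7 and an Rps28 probe set at 42.7, and just outside lay an Rpl19 probe set at 30.8 and the Rps13 probe set at 27.5. Rplp1 and Rplp2, which complete the ribosomal stalk, had no probe set that named them alone. A further 39 ribosomal protein probe sets listed several symbols and were not members.

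Hippocampal total RNA was hybridised to Affymetrix MG-U74Av2 arrays, 1 colour and 1 array per sample. Each sample pooled the hippocampi of 2 male pups of 1 genotype, from C57BL/6 mice crossed with mice heterozygous for Nf1. Nf1 heterozygous pups (Nf1+/-) gave 4, 4, 2, 2, 2 and 1 samples on postnatal days 10, 15, 18, 20, 28 and 32 (P10 to P32), and wild-type pups gave 3, 4, 2, 2, 2 and 2. The heterozygous state is inherited, so all tissues of those pups share it. The allele is not described in the labels, which name no treatment.

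The number of arrays limits the precision. Array medians lay between 49.99 and 59.11 intensity units, as the authors had scaled the arrays. They were lower at late ages, at 55.66 to 59.11 at P10, 50.76 to 52.19 at P28 and 49.99 to 51.36 at P32. The main model added no normalization. The Nf1 probe set was dim and did not separate the genotypes, at 2.15 to 15.04 intensity units in Nf1+/- samples and 1.43 to 19.1 in wild-type samples, so it gives no check of the labels. The 2 Nf1+/- P18 samples stood apart: they correlated with each other at 0.930 over the tested probe sets, below every other pair within a group (0.953 or more), and sample 1b had the highest ratios of 3′ to 5′ control probe sets (log2 0.48 for Gapdh and 1.14 for Actb). These ratios rise when RNA or its labelling is incomplete towards the 5′ end, and calls that rest on those samples are given with and without sample 1b. A sample is called by its title code, such as 1b, whose number and letter the labels do not explain.

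The 25 genes, kept for a mean intensity of 31 or more, spanned a wide range of brightness. Mean intensity over the 30 arrays ran from 53.1 units to 6775 units with a median of 1924, and 17 of the 25 genes were at 1000 or more. The brightest were Rpl41, which encodes a very short basic protein of the large subunit (6775 units), Rps24 (5026) and Rps28 (4942). The dimmest were Rpl22, a large-subunit protein that has a close paralog (210.02), Rps29, a small-subunit zinc-finger protein (56.2), and Rpl7l1, a paralog of Rpl7 that acts in ribosome assembly (53.1). Brightness depends on each probe set, so these values do not rank the mRNAs by abundance. The probe set annotated as Rps24 comes from the same GenBank record as the one annotated as Rpl7, so which of the 2 mRNAs it reads is uncertain. A second Rps24 probe set, from another record, averaged 25.8 units, below the limit of 31. The place of Rps24 among the 25 genes thus rests on the uncertain probe set. Of the 30 probe sets, 3 carry the suffix f_at and 2 s_at, which mark probes shared with related sequences, and 3 carry r_at, which marks probes picked after some selection rules were dropped. Processed pseudogenes of ribosomal proteins could add signal to any of them.

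Sequences around the annotated transcription start are shown for 8 genes that the results below turn on, to let the start of each mRNA be read beside its course. Each runs from 12 bases before to 18 bases after a RefSeq start (GRCm38.p6), 5′ to 3′ on the gene's own strand. Capitals mark an unbroken run of 8 or more C or T. Rpl10a and Rpl19 each have 2 RefSeq entries, and the one whose window holds the longest run of C or T is shown. The Rpl19 and Rpl7a starts shown lie inside the annotated genes, which begin at positions 98022003 and 26910685.
Rplp0 (chr5:115559455-115559484, plus strand): ttcgggtttcgaggaccgcctggttctcct
Rpl10a (chr17:28328459-28328488, plus strand): gcgcccccccagcggccgcaaactgcagcg
Rpsa (chr9:120127754-120127783, plus strand): ggttatttaaggacgtcatttccggccgcc
Rps18 (chr17:33955648-33955677, minus strand): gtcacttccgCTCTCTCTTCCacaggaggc
Rpl7a (chr2:26910795-26910824, plus strand): CCCTCTTCTTTCTTTCTCCagcagccgagc
Rps10 (chr17:27635227-27635256, minus strand): ccgcgcacgCCCCTTCCTTTCCagcctccg
Rps3 (chr7:99483692-99483721, minus strand): gcaagggtcgccgcgctgcgcggcgtcatt
Rpl19 (chr11:98026912-98026941, plus strand): gCTCTCCCCTTCgcagataatgggcggagc

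Rps18, Rpl7a and Rps10 hold such a run across the start shown, of 11, 19 and 13 bases within the window. In Rpl19 a run of 11 bases ends just before the start shown, and the other 4 windows hold none. Of the 25 genes, 21 had an entry in the RefSeq table of start regions, and Rpl7, Rpl8, Rps29 and Rps4l had none. A run of 8 or more lay in the 30-base window of 7 of the 21 genes (33.3%), against 3630 of 27025 genes with an entry (13.4%). Here and below, a gene with several entries was counted if any of them held the sequence. The hexamer CGGAAG, the core bound by ETS-family factors, lay on either strand of the 300-base region (250 before and 50 after the start) of 13 of 21 genes (61.9%), against 18.8% of all genes. TATAAA lay in 3 of 21 (14.3%), against 15.7%, and CACGTG in 3 of 21 (14.3%), against 8.09%. A run missing from a window says only that these letters are not there at the annotated start, which can lie some bases from the start used in this tissue.

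Over the 6 ages, 20 of the 25 genes changed in the test of any change with age (limma F test, Benjamini-Hochberg adjusted p below 0.05 over 7453 tested probe sets), where 54.2% of all tested probe sets did. The 5 that did not pass were Rps4l (adjusted p = 0.0678), Rps4x (0.130), Rps24 (0.145), Rps28 (0.146) and Rpl7l1 (0.637), limma throughout. These values are those of each gene's brightest probe set. By probe set, 22 of 29 were called, and a dimmer Rps28 probe set fell from P10 to P15, as given below. All changes below are differences of log2 intensity from one limma model of all 30 samples, and "called" means an adjusted p below 0.05. The samples are separate pools, and nothing says whether they came from separate litters, so p-values reflect only how much such pools vary.

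**Figure D1:**
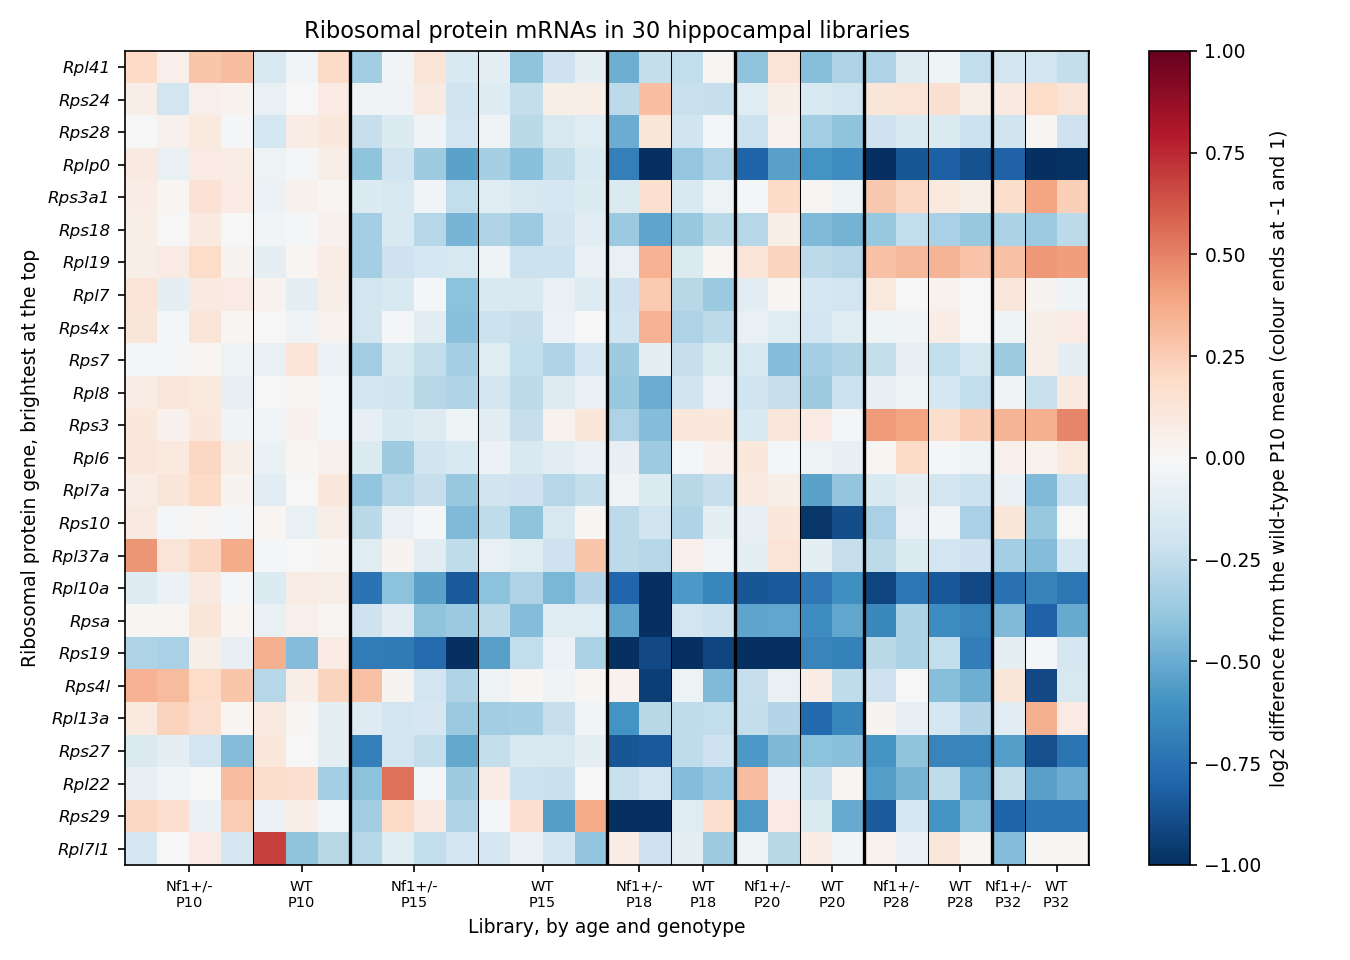
Each cell is 1 gene (rows, brightest at the top) in 1 sample (columns, by postnatal day and then genotype), and colour is the difference of log2 intensity from that gene's mean in wild-type P10 samples, with blue lower. Most cells are blue at P15, and at P28 and P32 Rplp0 and Rpl10a are dark blue and Rpl19 and Rps3 red.

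The first and broadest step was a fall between P10 and P15. All 25 genes had lower fitted means at P15 than at P10, and 17 fell past the test, where 13.4% of all tested probe sets did. The median change of the 25 genes was -0.21, against -0.02 over all tested probe sets. Of 12 large-subunit genes (Rplp0 included) 10 fell, and of 13 small-subunit genes 7 fell. By brightness, 14 of the 17 genes at 1000 units or more fell, and 3 of the 8 below 1000 units. The medians of these sets were -0.22 and -0.18, so the number of calls depended on brightness more than the size of the change did. The probe sets with several symbols went the same way, with 24 of 34 tested lower and a median of -0.27. Within the samples whose title code starts with 1, 24 of 25 genes were lower with a median of -0.20, and within those starting with 2, 25 of 25 with a median of -0.22. With the whole title code as a term in the model, Rps19, Rplp0, Rps18 and Rpl13a kept the call. Rpl10a, Rpl7a, Rpsa, Rpl41, Rps7 and Rpl8 lost it. In Nf1+/- samples no title code occurs at both P10 and P15, so code and age cannot be told apart there.

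The large-subunit genes that fell most were Rpl10a, a protein of the L1 stalk near the tRNA exit site, and Rplp0, the base of the stalk that recruits elongation factors. Rpl10a read 965, 1211, 1113 and 899.7 units in Nf1+/- P15 samples and 1208, 1297, 1171 and 1315 in wild-type P15 samples. At P10 it read 1469.9, 1547, 1715 and 1597 in Nf1+/- samples and 1460.2, 1689 and 1688 in wild-type samples. Every P15 sample lay below every P10 sample, in both genotypes, and the change was -0.49 (SE 0.07, adjusted p = 1.99e-05), 1.40-fold lower.
Rplp0 averaged 3395 ± 292 units at P15 (SD, n = 8) and 4334 ± 199 at P10 (n = 7), a limma change of -0.35 (SE 0.07, adjusted p = 0.000263). Its 8 P15 samples ranged from 2942 to 3826 and its 7 P10 samples from 4049 to 4526, with no overlap. Rpl7a, a large-subunit protein known as surfeit-3, changed by -0.33 (SE 0.05, limma adjusted p = 2.28e-05), with 1461 to 1679 units at P15 and 1785 to 2199.8 at P10. Rpl13a (-0.29), Rpl41 (-0.25), Rpl8 (-0.23), Rpl19 (-0.22), Rpl37a (-0.22), Rpl6 (-0.21) and Rpl7 (-0.18) fell as well. Rpl7l1 (-0.18) and Rpl22 (-0.10) were not called. The call of Rpl41 was lost without any 1 of Nf1+/- P10 2b, Nf1+/- P15 1c, wild-type P10 2b or wild-type P15 1b.

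Among small-subunit genes the largest fall was that of Rps19, the gene most often mutated in human Diamond-Blackfan anaemia, at -0.50 (SE 0.11, limma adjusted p = 0.00163), 1.42-fold lower. It averaged 532 ± 102 units in Nf1+/- P15 samples and 866 ± 112 in Nf1+/- P10 samples (SD, n = 4 each). In wild-type samples it averaged 794 ± 109 at P15 (n = 4) and 988 ± 261 at P10 (n = 3), and there the ranges overlapped.
Rps18, a protein of the small-subunit head, averaged 2551 ± 229 units in Nf1+/- P15 samples and 3240 ± 108 in Nf1+/- P10 samples (SD, n = 4 each), with 2671 ± 213 and 3155 ± 77.4 in wild-type ones (n = 4 and 3), and changed by -0.30 (SE 0.06, limma adjusted p = 0.000449). Rpsa, a small-subunit protein also known as the laminin receptor precursor, fell by 0.27 (SE 0.08, adjusted p = 0.0134). Rps7 (-0.23), Rps10 (-0.21), Rps4x (-0.19) and Rps3a1 (-0.19) also fell. Rps27 (-0.18), Rps4l (-0.17), Rps28 (-0.16), Rps29 (-0.12), Rps3 (-0.10) and Rps24 (-0.05) were not called. For Rps28 a second, dimmer probe set was called, at -0.33 (adjusted p = 1.89e-05), so the call depends on the probe set.
The 8 P15 samples lay wholly below the 7 P10 samples for 6 of 25 genes (24%): Rpl10a, Rpl7a, Rplp0, Rps18, Rps7 and Rpsa. That order held for 4.17% of all tested probe sets.

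**Figure D2:**
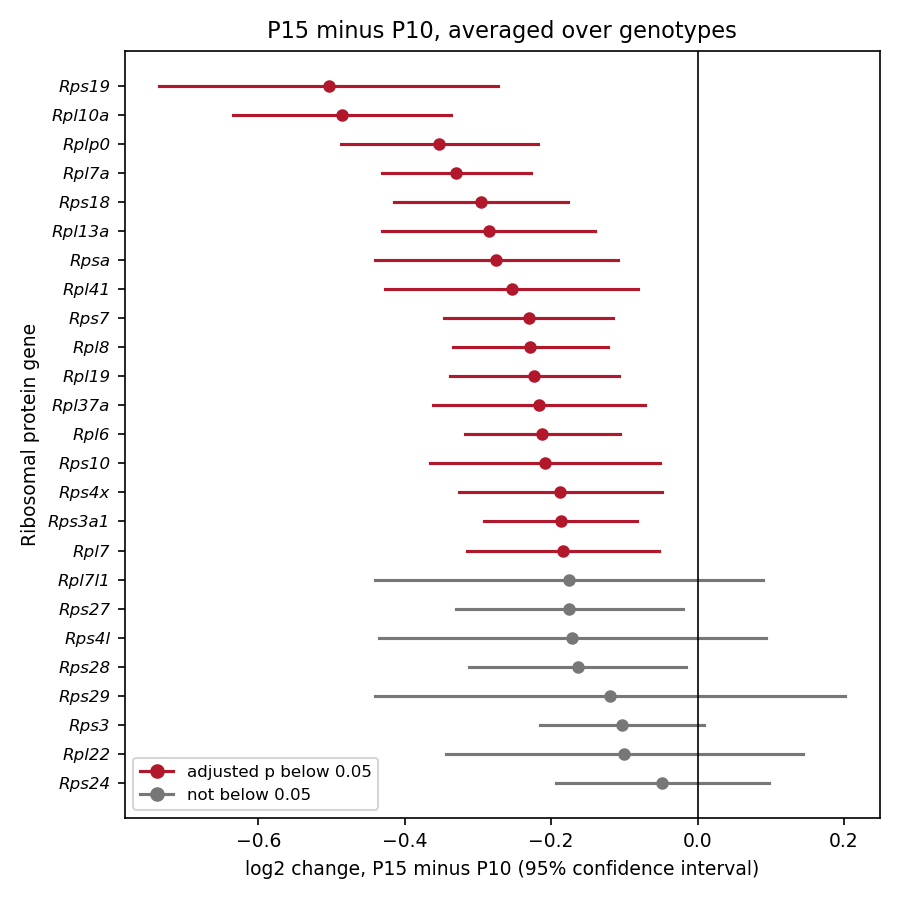
Points are the log2 change of each of the 25 genes, P15 minus P10 averaged over genotypes, and bars are 95% confidence intervals. All 25 points lie left of 0, and the 17 genes in red passed an adjusted p of 0.05.

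By genotype, 14 of the 25 genes fell in Nf1+/- samples, where 11% of all tested probe sets did, with a median of -0.29. In wild-type samples 1 gene fell, Rpl10a (-0.37, limma adjusted p = 0.0381), where 2.55% of all did, with a median of -0.16, and all 25 genes were lower in each genotype. The difference between the genotypes was called for 0 of 25 genes and 0% of all tested probe sets (limma), with 2 of 25 at an unadjusted p under 0.05, so the unequal counts do not show that the genotypes differ in this step.

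The tissue changed in other ways in the same interval. Of 6 markers of immature neurons, such as Dcx and Stmn1, 6 fell, and their summed intensity was 5378 to 7508 units at P15 and 10024 to 11835 at P10. Of 3 tested markers of cycling cells 2 fell, and the sum of the 5 measured was 152 to 265 at P15 and 295 to 399 at P10. Of 5 oligodendrocyte markers 5 rose, with sums of 2849.8 to 8100.4 at P15 and 571 to 931 at P10. Of 4 neuronal markers 4 rose (sums of 4392 to 5773 at P15 and 3464 to 4395 at P10), of 6 microglial markers 5 rose (1605 to 1892 at P15 and 1139 to 1377 at P10), and of 5 astrocyte markers 2 rose and 1 fell (3688 to 4097 at P15 and 3045 to 3753 at P10). Of 3 choroid plexus markers 3 rose, and their sums overlapped, with 1142 to 3001 at P15 and 88.2 to 2442 at P10. Vascular markers went the other way. Of 6 endothelial markers 3 fell (551 to 735 at P15 and 880.3 to 994 at P10), of 6 markers of mural cells and fibroblasts 2 fell (904 to 1290.3 at P15 and 1128 to 1480.2 at P10), and of 3 red blood cell markers 0 were called in limma (1769 to 2735 at P15 and 2361 to 3568 at P10). No marker of these lists was at 0. In whole hippocampus, fewer cells of a type and less RNA per cell cannot be told apart, and the part of these shifts in the ribosomal protein result was not tested.

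Genes that act with ribosomal proteins were less uniform. Over all tested probe sets 13.4% fell and 12.5% rose between P10 and P15. Of 27 tested ribosome biogenesis genes 10 fell (37%) and 1 rose (3.7%), with a median of -0.23. Fibrillarin (Fbl), which methylates ribosomal RNA, fell by 0.72 (SE 0.09, limma adjusted p = 1.79e-06), Bysl, needed for small-subunit maturation, fell by 0.64, and nucleolin (Ncl) fell by 0.30. Of 13 tested genes of other TOP mRNAs, 4 fell (30.8%) and 1 rose: poly(A)-binding protein Pabpc1 fell by 0.40 (SE 0.05, limma adjusted p = 2.82e-06) and Eef1a1 by 0.17, and Eif4b rose by 0.30. Initiation factors had 6 lower (21.4%) and 3 higher (10.7%) of 28, with a median of -0.11, led by Eif2s2 at -0.998 and Eif3j1 at 0.50. Their lower share was above the 13.4% of all tested probe sets, and their higher share was close to the 12.5%. Among regulators of translation 3 of 9 fell, namely Larp1 (-0.17), Tsc2 (-0.25) and Mycn (-0.49). Mitochondrial ribosomal proteins, which build a separate ribosome, had 4 lower and 4 higher of 58 (6.9% each), with a median of 0.03.

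After P15 the genes parted. From P15 to P18, 3 of 25 genes fell and 0 rose, where 1.89% of all tested probe sets fell: Rps29 (-0.73, limma adjusted p = 0.0311), Rpl10a (-0.33, 0.0338) and Rplp0 (-0.30, 0.0328). Without Nf1+/- P18 sample 1b the count was 0, without Nf1+/- P18 sample 1a it was 5, and without Nf1+/- P15 sample 1d, wild-type P15 sample 2d or either wild-type P18 sample it was 0. In Nf1+/- samples alone 6 genes fell (10.9% of all) and 2 rose (10.5% of all), Rpl19 and Rpl7a. Without Nf1+/- P18 sample 1b, 0 of the 25 genes were called in that comparison (limma). Without sample 1a 7 fell and 5 rose, without Nf1+/- P15 sample 1d 3 fell and 1 rose, and without Nf1+/- P15 sample 1c or 2d 5 fell and 1 rose. In wild-type samples 0 genes were called (limma, 1 of 25 at an unadjusted p under 0.05), where 0.121% of all were. From P18 to P20 and from P28 to P32, 0 of the 25 genes were called (limma, 2 and 0 at an unadjusted p under 0.05), with 0.0134% of all probe sets called in each step. From P20 to P28, 4 genes rose, where 3.06% of all did. They are named here after their values were seen: Rps19 (0.51), Rpl13a (0.36), Rpl19 (0.36) and Rps3 (0.30). Wild-type P20 samples carry title number 2 and all P28 samples number 1. Title number and age thus cannot be told apart in wild type here. Gapdh 3′/5′ log2 ratios were -0.33 and -0.30 at wild-type P20 and 0.15 and 0.05 at wild-type P28. Rpl19 averaged 2924 units at P20 and 3203 at P28 in Nf1+/- samples, and 2144 and 3217 in wild-type ones. Rpl13a averaged 243 and 287 in Nf1+/-, and 178 and 248 in wild-type samples. Rps19, given below, rose more in Nf1+/- samples.

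The comparison of P28 and P32 with P15, averaged over genotypes, was added after the values were seen. In it 7 genes fell (22.6% of all tested probe sets) and 7 rose (20.8% of all), shares of the 25 genes close to those backgrounds. The fall was that of Rps29 (-0.59), Rplp0 (-0.57), Rps27 (-0.34), Rpl22 (-0.34), Rpsa (-0.30), Rpl10a (-0.29) and Rpl37a (-0.19). The rise was that of Rpl19 (0.51), Rps3 (0.42), Rps19 (0.35), Rps3a1 (0.35), Rpl7 (0.20), Rpl6 (0.20) and Rpl13a (0.18).
Both subunits were in each group, with 4 large-subunit genes lower and 4 higher and 3 small-subunit genes lower and 3 higher. When the log2 Gapdh 3′/5′ ratio entered the model, 2 genes fell and 4 rose. That log2 ratio ran from -0.14 to 0.15 at P28 and P32 and from -0.26 to -0.08 at P15.

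Rpl19, a large-subunit protein that reaches across to the small subunit, rose the most. It read 3165, 3241 and 3162 units in Nf1+/- samples of P28 and P32 and 3279.9, 3154, 3502 and 3462 in wild-type ones, against 2043 to 2516 units over the 8 P15 samples. No late sample reached down to a P15 sample, and the change was 0.51 (SE 0.06, limma adjusted p = 4.32e-07), 1.43-fold.
Rps3, which lines the mRNA entry channel and also has a role in DNA repair, averaged 2719 ± 198 units at P28 and P32 (SD, n = 7) and 2032 ± 159.9 at P15 (n = 8), a change of 0.42 (SE 0.06, limma adjusted p = 3.39e-06). Its late samples, 2405 to 2989, lay above all P15 samples, 1816 to 2324. Rps3a1 and Rpl6 also had every late sample above every P15 sample, so this held for 4 of 25 genes, against 6.57% of all tested probe sets.
Rps19 fell and then came back up. It averaged 482 ± 47.0 units in Nf1+/- samples and 472 ± 52.8 in wild-type samples at P18 (SD, n = 2 each), 446 ± 0.231 and 606 ± 3.22 at P20, and 787 ± 16.4 and 705 ± 152 at P28. Its lowest group means were thus at P20 in Nf1+/- and at P18 in wild-type samples, and at P28 both Nf1+/- samples and 1 of the 2 wild-type samples lay within the P10 range of their genotype. Rpl13a was called in the same steps, lower at P15 than at P10, higher at P28 than at P20 and higher at P28 and P32 than at P15. Its lowest group means were 217 ± 33.7 units at P18 in Nf1+/- samples and 178 ± 11.2 at P20 in wild-type samples (SD, n = 2 each).

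**Figure D3:**
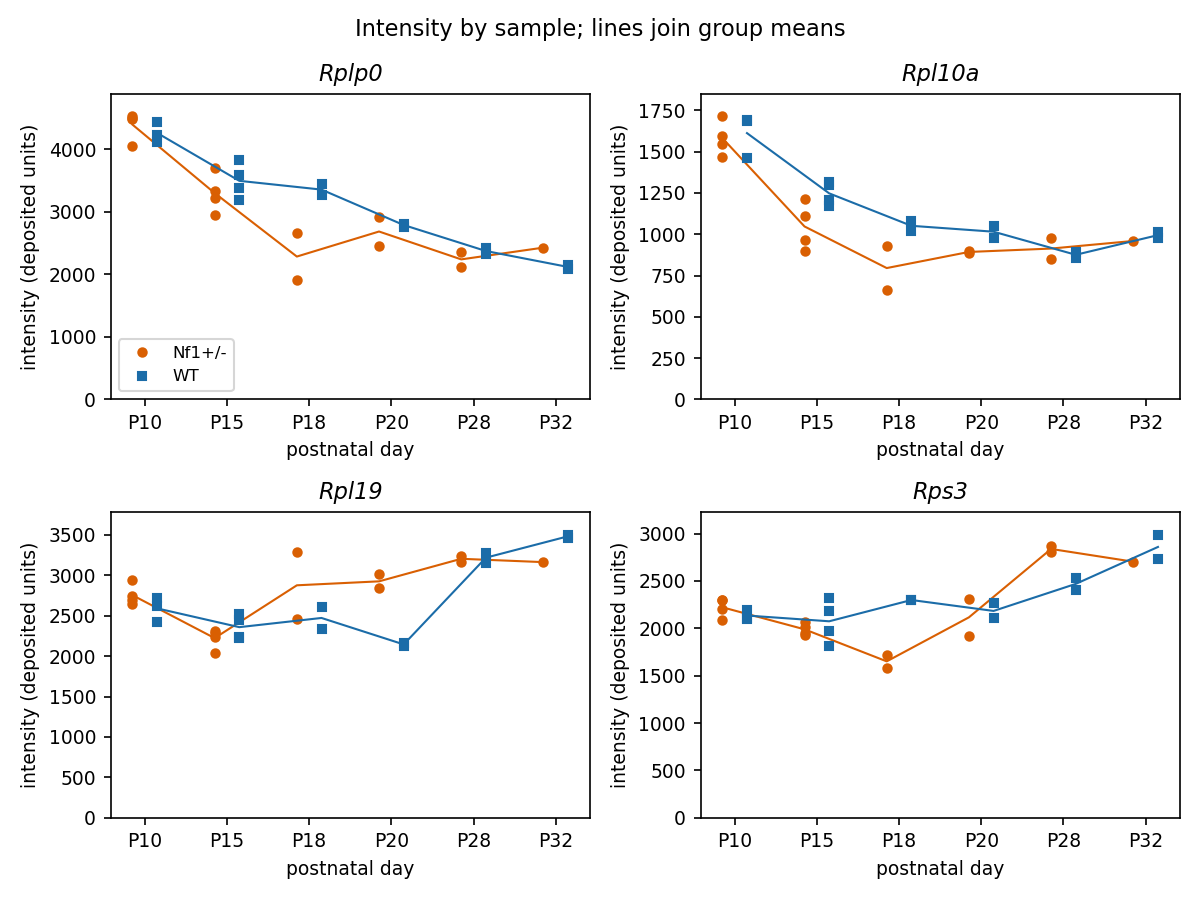
Intensity of Rplp0, Rpl10a, Rpl19 and Rps3 in every sample by postnatal day, with Nf1+/- samples as orange circles left of wild-type samples as blue squares, and lines joining group means. By group mean, Rplp0 and Rpl10a stand highest at P10, and Rpl19 and Rps3 stand highest at P28 or P32.

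Over the whole span, from P10 to the mean of P28 and P32, 10 of 25 genes fell and 1 rose in Nf1+/- samples, where 19.5% of all tested probe sets fell and 17% rose. In wild-type samples 9 fell and 3 rose, where 20.1% fell and 18% rose. The medians of the 25 genes were -0.20 in Nf1+/- samples and -0.18 in wild-type samples, against -0.06 and -0.04 over all tested probe sets. Without Nf1+/- P28 sample 1a, 5 genes fell in the Nf1+/- comparison. The late Nf1+/- mean rests on 3 samples, 1 of them at P32.

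Rplp0 fell furthest in both genotypes. It read 2117, 2357 and 2425 units in Nf1+/- samples of P28 and P32, against 4049 to 4526 in Nf1+/- P10 samples, a change of -0.91 (SE 0.10, limma adjusted p = 1.76e-07), 1.88-fold lower. In wild-type samples it read 2415, 2327, 2086 and 2145 at P28 and P32 and 4116 to 4427 at P10, a change of -0.93 (SE 0.10, adjusted p = 1.01e-07), 1.90-fold lower.
The groups were far apart in each genotype, and Rpl10a behaved likewise, at -0.76 (SE 0.11) in Nf1+/- and -0.79 (SE 0.11) in wild-type samples. Rpsa changed by -0.51 and -0.65, Rps18 by -0.35 and -0.33, Rps27 by -0.31 and -0.73, Rps29 by -0.79 and -0.62, and Rpl7a by -0.20 and -0.26, all called in Nf1+/- and in wild-type samples.
Rps27 and Rps29 both encode small-subunit zinc-finger proteins. Rpl37a (-0.56), Rpl41 (-0.41) and Rps7 (-0.24) were called in Nf1+/- samples, where their wild-type values were -0.25, -0.18 and -0.11. Rps4l, an autosomal paralog of Rps4x, was called in wild-type samples (-0.50, with -0.27 in Nf1+/-), and so was Rpl22 (-0.45, with -0.43 in Nf1+/-), whose second probe set was not called at -0.44.
Rps3 rose in both, by 0.32 in Nf1+/- (SE 0.08, limma adjusted p = 0.00380) and 0.31 in wild-type samples (SE 0.08, adjusted p = 0.00309). Rpl19 rose by 0.37 (SE 0.08) and Rps3a1 by 0.20 in wild-type samples, and their Nf1+/- values were 0.21 and 0.12.
Some of these calls hung on single samples. In Nf1+/- samples, those of Rps29, Rpl41, Rps27, Rps7 and Rpl7a were lost without P28 sample 1a, and Rps27, Rps7 and Rpl7a also without P10 sample 2a, Rps27 and Rpl7a without P10 sample 1a or 1b, and Rpl7a without P28 sample 1b. In wild-type samples, the call of Rps29 was lost without any 1 of the 7 samples. That of Rps3a1 was lost without any P10 or P28 sample or P32 1a, that of Rps4l without P10 2a or 2b, either P28 sample or P32 1a, that of Rpl22 without P10 1b or 2a, P28 1b or either P32 sample, and that of Rpl7a without P10 2b.

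The difference between the genotypes over this span was called for 0 of 25 genes and 0% of all tested probe sets (limma), with 2 of 25 at an unadjusted p under 0.05. Genes called in 1 genotype alone are therefore not shown to differ between them. Across the 25 genes, the changes in the 2 genotypes correlated at r = 0.87, a description over genes that share samples and are not independent. The spread of the 25 genes within a sample, taken as the SD over genes of the log2 difference from each gene's mean in wild-type P10 samples, had medians of 0.14 at P10, 0.18 at P15, 0.28 at P18, 0.31 at P20, 0.32 at P28 and 0.37 at P32. The P10 value is low in part because wild-type P10 samples set those means.

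**Figure D4:**
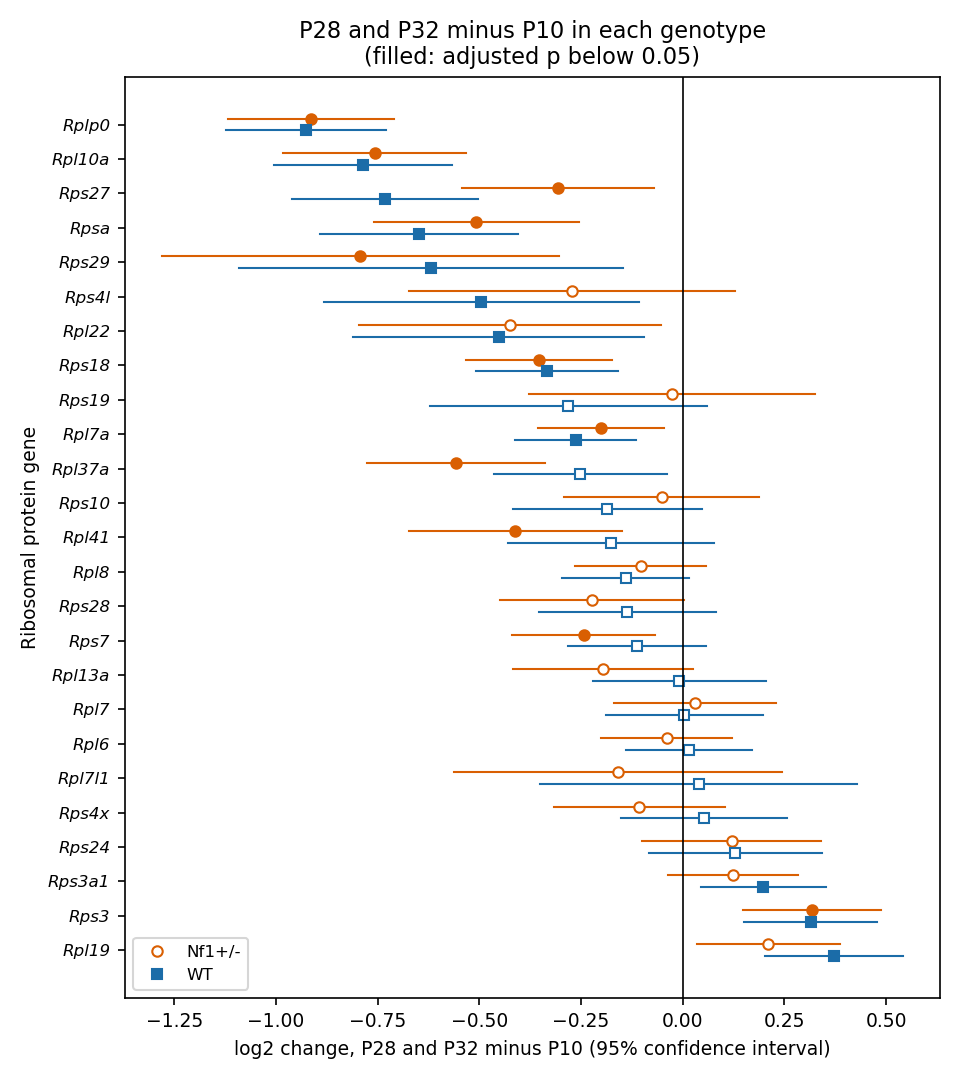
Points are the log2 change from P10 to the mean of P28 and P32 for each of the 25 genes, in Nf1+/- samples (orange circles, upper) and wild-type samples (blue squares, lower), with 95% confidence intervals and filled symbols where adjusted p was below 0.05. Rplp0 lies near -0.92 in both, and Rps3 lies at 0.32 and 0.31.

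Other translation genes changed unequally over the span. The elongation factor Eef1a2, the form that replaces Eef1a1 in mature neurons and muscle, fell, with changes of -1.13 in Nf1+/- samples (SE 0.21, limma adjusted p = 0.000234) and -1.84 in wild-type samples (SE 0.21, adjusted p = 3.44e-07). The 13 tested genes of other TOP mRNAs had 2 lower and 2 higher (15.4% each) in wild-type samples. In Nf1+/- samples they had 3 lower and 1 higher. Their medians were 0.11 in wild-type and -0.03 in Nf1+/- samples, against -0.04 and -0.06 over all tested probe sets. Among them, Eef2 changed by -0.67 and Pabpc1 by -0.50 in wild-type samples. Ribosome biogenesis genes had 5 lower (18.5%) and 0 higher of 27 in Nf1+/- samples, and 5 lower (18.5%) and 1 higher in wild-type samples, against 19.5% and 20.1% lower over all tested probe sets, with Fbl at -0.92 and Nop10 at -0.76 there. Mitochondrial ribosomal proteins were divided, with 7 lower (12.1%) and 9 higher (15.5%) of 58 in Nf1+/- samples and 10 lower and 10 higher (17.2% each) in wild-type samples, from Mrpl34 at -1.60 to Mrps25 at 0.81.

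Genotype was called for no member over all ages, nor at P10, P15, P28 or P32. Over all ages, 0 of 25 genes and 0% of all tested probe sets differed between Nf1+/- and wild-type samples (limma, 15 samples each, 4 of 25 genes and 698 probe sets at an unadjusted p under 0.05), and the median difference was 0.03. At single ages 0 genes were called at P10 (0.0403% of all), P15 (0% of all), P28 (0.0134%) and P32 (0.0537%), with 1, 3, 0 and 3 of 25 at an unadjusted p under 0.05 in limma.

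At P18 the Nf1+/- samples were lower for 7 genes, where 11.8% of all tested probe sets were, and higher for 2, where 11% were. The largest were Rps29 (-1.60, SE 0.30, limma adjusted p = 0.00108), Rpsa (-0.64) and Rps27 (-0.62), and on the other side Rps4x (0.36) and Rpl7 (0.35). Rps29 read 28.7 and 16.3 units in the Nf1+/- P18 samples and 59.5 and 72.2 in the wild-type ones.
Sample 1b, the one with the high 3′ to 5′ ratios, held the lower value of Rps29 and of Rpsa (465 units, with 716 in sample 1a, against 906 and 889.9 in wild-type samples). Without it, 1 gene was called lower and 0 higher. Without sample 1a, 9 were lower and 5 higher, without either wild-type P18 sample 5 were lower and 0 higher, and with the Gapdh ratio in the model 0 were called. The calls of Rps29, Rpsa and Rpl7 were lost without sample 1b, that of Rpl7 also without either wild-type P18 sample, and that of Rps4x under 27 of 40 alternatives. The change from P15 to P18 also differed between genotypes for 4 genes, lower in Nf1+/- each time (5.88% of all tested probe sets): Rps29 (-1.52), Rpsa (-0.60), Rplp0 (-0.49) and Rps3 (-0.42). Without sample 1b 0 genes were called in it (limma), and the values were -1.11, -0.29, -0.25 and -0.36. Without sample 1a 4 were lower and 4 higher, and without wild-type P18 sample 1d 0 were called. Rps29 alone was called without wild-type P18 sample 1c or wild-type P15 sample 1a or 1b, and Rps29 and Rps3 were called without Nf1+/- P15 sample 1d.

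At P20, 3 genes were higher in Nf1+/- samples, where 0.899% of all tested probe sets were. Rps10, a small-subunit protein that is ubiquitinated when ribosomes stall, read 1608 and 1828 units in Nf1+/- P20 samples and 864 and 922 in wild-type ones, a difference of 0.94 (SE 0.15, limma adjusted p = 0.00109).
The 2 wild-type P20 samples stood alone: every other sample of either genotype lay at 1253 units or above. Rpl7a read 2046 and 2014 units in Nf1+/- and 1328 and 1463 in wild-type P20 samples (0.54, limma adjusted p = 0.00344), and Rpl19 differed by 0.45 (adjusted p = 0.0307). Without wild-type P20 sample 2a, 1 gene was called, Rpl7a was lost, and Rpl19 was lost without any 1 of the 4 samples. The Nf1+/- P20 samples carry title numbers 1 and the wild-type ones 2, so title number and genotype cannot be told apart at this age, and their Gapdh 3′/5′ log2 ratios were 0.00337 and 0.17 in Nf1+/- and -0.33 and -0.30 in wild-type samples.
The test of a genotype effect that varies with age called 4 of 25 genes, where 6.49% of all tested probe sets were called: Rps10 (limma adjusted p = 0.0164), Rpl7a (0.0249), Rps29 (0.0434) and Rps3 (0.0488). Without Nf1+/- P18 sample 1b the calls of Rps29 (0.278) and Rps3 (0.157) were lost. With each of the 30 samples left out in turn, Rps29 was called in 12 and Rps3 in 7 of the 30 fits, Rpl7a in 26 and Rps10 in 27. Rps10 and Rpl7a were not called when both Nf1+/- P20 samples or both wild-type P20 samples were left out. Leaving out either group takes P20 out of the test, so these fits cannot show whether the calls are stable. The count of 4 was 12 without Nf1+/- P18 sample 1a, 1 without either wild-type P18 sample or wild-type P20 sample 2b, and 0 without wild-type P20 sample 2a. It was 2, Rps10 and Rpl7a, without Nf1+/- P10 1a, 1b or 2b, Nf1+/- P15 2d, Nf1+/- P28 1b, any wild-type P10 or P28 sample, wild-type P15 1a or wild-type P32 1a.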

How the data were processed

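The authors deposited linear-scale intensities, already summarised to a single value for every probe set of an array. Nothing in the sources used here names their software. Trimmed array means were equal, so the authors had scaled the arrays. Before log2, any value under 1 was raised to 1, and no normalization was added. Of 12488 probe sets, 66 controls and the 4969 lowest by mean log2 (40%) were left out, and 7453 were tested with limma 3.58.1 in R 4.3.3, as 1 mean per genotype and age over 30 samples with an intensity trend, Benjamini-Hochberg adjusted over all tested probe sets. An additive model gave genotype over all ages. A gene was read from its brightest probe set. The code was tested on simulated data.

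The members, gene lists and tests were chosen with earlier results of these data known. Named genes were, among those called, the 10 largest falls and 5 largest rises in P15 minus P10 and in each change from P10 to P28 and P32, the 3 largest each way elsewhere, the 3 brightest and 3 dimmest, Rpsa, Rplp0 and paralog forms; the rest are named to account for every member or for counts of 5 or fewer. Alternatives covered log scale, normalization, filter, variance prior, array weights, samples in the model, title code or number, the Gapdh ratio, probe set and each sample left out.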

Additional observations from a re-analysis of the deposited data

Results flagged for a closer look

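In groups of 4 samples, 75 sets of 1 gene in 1 group were examined for a sample far from the rest, and 4 were found, where chance gives about 1 in 20, or 3.75. Nf1+/- P10 sample 1b was low for Rplp0, at 4049 units with the other samples at 4487 to 4526, and for Rps24, at 4416 with the others at 5158 to 5297. Nf1+/- P10 sample 2a was high for Rpsa, at 1124 units with the others at 1045 to 1049.6. Nf1+/- P15 sample 2d was low for Rps19, at 380.1 units with the others at 564 to 593. The change from P15 to P18 differed between genotypes, by the test of the difference itself in limma, for Rps29 (-1.52), Rpsa (-0.60), Rplp0 (-0.49) and Rps3 (-0.42). The genotype effect varied with age for Rps10 (limma adjusted p = 0.0164), Rpl7a (0.0249), Rps29 (0.0434) and Rps3 (0.0488). Without Nf1+/- P18 sample 1b, none of the 4 P15 to P18 differences was called in limma, nor were the age-dependent effects of Rps29 and Rps3. Those of Rps10 and Rpl7a were not called without both Nf1+/- P20 samples or without both wild-type P20 samples, fits in which P20 is no longer tested.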

How the results depend on the processing

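The deviations of same-coded samples of the 2 genotypes from their group means correlated at -0.18 to 0.13. These values came from small groups at P10, P15 and P28 alone, so they cannot tell whether the title code pairs samples. With the title code as a replicate block, the genes called lower were 4 for P15 minus P10, 6 and 5 for P10 to P28 and P32 in Nf1+/- and wild-type samples, and 0 for P18 minus P15. Leaving out each sample in turn gave 5 to 11 lower and 1 to 2 higher genes in the Nf1+/- change from P10 to P28 and P32, and 0 to 5 lower genes for P18 minus P15. It also gave 0 to 7 lower and 0 to 5 higher genes for P18 minus P15 in Nf1+/- samples, 0 to 8 genes for the difference between genotypes in that step, and 0 to 12 for a genotype effect that varies with age. That last count of 4 was 3 without both Nf1+/- P18 samples, 1 without both wild-type P20 samples and 2 without both Nf1+/- P20 samples. These fits were chosen after seeing the data, and each takes the age of the group left out from the test. The Nf1+/- count of 1 higher became 3 with quantile normalization and 2 with the lowest 60% left out, array weights, the groups compared alone, title number as a term, the Gapdh ratio as a covariate, or both Nf1+/- P18 samples left out. The P18 minus P15 count of 3 became 0 with no filter, array weights, the groups compared alone or the Gapdh ratio, and 1 with no trend or with title number. The causes were not tested. Of 44 called gene results, 17 were called under every alternative, 27 lost the call under at least 1, and 0 reversed. Median changes of the 25 genes ranged from -0.28 to -0.19 for P15 minus P10. Dim genes such as Rps29 are limited by signal close to background.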
